A study of Homo sapiens with 6 samples.

Results

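NRF2 targets and antioxidant enzymes were examined as a list of 44 genes, chosen by name and by function: the factor NRF2 and its partners, and the genes for glutathione, thioredoxin, NADPH supply, detoxification and the removal of peroxide and superoxide. The list was drawn up with earlier results of these data known, so it is described and not tested as a set. All 44 were found among the 60708 gene identifiers of the count files, and 43 had enough counts for a test, beside 20409 genes tested in all. The counts come from bulk RNA sequencing of wild-type U2OS cells, a human line established from an osteosarcoma, in 2 groups of 3 biological replicates. Control cells were kept in the solvent DMSO, and treated cells, called PARGi, in 25 µM PDD00017273 for the same 4 days. PDD00017273 blocks PARG, the glycohydrolase that takes poly(ADP-ribose) chains apart. The labels name no genetic change in either group.

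NRF2, encoded by NFE2L2, is a transcription factor whose protein is kept scarce by KEAP1, an adaptor that presents it for ubiquitination and destruction. When oxidants or electrophiles modify KEAP1, NRF2 escapes, pairs with a small MAF protein and binds antioxidant response elements near genes that make glutathione and thioredoxin, supply NADPH and detoxify quinones and heme. This control acts on the protein, so the level of the NFE2L2 transcript does not report NRF2 activity. Other factors also drive many of these genes: SLC7A11 is a target of ATF4 as well, and HMOX1 responds to heme and metals.

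Depth ran from 60286931 to 80605145 counts per library, and the members took between 0.468% and 0.495% of all counts in every library. Levels are given as CPM, counts brought to a common library total and scaled by the trimmed mean of M-values (TMM). Differences are log2 fold changes of PARGi against DMSO from edgeR's quasi-likelihood test, with p-values adjusted by Benjamini-Hochberg over all tested genes and a threshold of 0.05. Of 8 genes fixed as markers of the osteoblast lineage, 5 reached 1 CPM in DMSO, COL1A1 and SPARC among them, while IBSP was at 0 counts in every library and SP7 and BGLAP had at most 10 counts in any, so the cells carried only part of that programme. In PARGi, COL1A2, RUNX2 and SPARC fell (log2 fold changes -0.80, -0.27 and -0.083), ALPL rose (0.23) and COL1A1 did not pass. The 4 mesenchymal markers were all above 1 CPM. Of 4 epithelial markers 3 reached 1 CPM and none was at 0; their sum ran from 27.4 to 28.5 CPM in DMSO and from 18.4 to 21.7 CPM in PARGi. Most of that sum was KRT14, which fell from 22.4 to 14.3 CPM, while CDH1 rose from 0.718 to 1.14 CPM and EPCAM and KRT5 did not pass; their part in the results was not tested. Summed blood markers lay between 1.28 and 1.5 CPM, and summed liver markers between 0.423 and 0.753 CPM. Summed endothelial markers ran from 2.8 to 3.7 CPM in DMSO and from 3.2 to 4.1 CPM in PARGi. In bulk RNA, a change in the number of cells of a kind and a change in RNA per cell cannot be told apart.

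Antioxidant response elements hold the letters TGACNNNGC, which were sought on both strands of the 300 bases from 250 before to 50 after each start site. The sequences are those of RefSeq on GRCh38.p14, where 34 of the 44 members have an entry, with 49 start sites. Not in the table were ABCC1, ABCC3, CBR3, GSR, GSS, HMOX1, PRDX1, PRDX6, SLC7A11 and SOD1. The letters were found at 9 of the 49 member promoters (18.4%) and at 13.3% of all 35116 promoters in the table. Counted by gene, with a match at any of its start sites, they lay beside 8 of the 34 members (23.5%) and 16.1% of all 27305 genes in the table. They lay beside 5 of the 10 members called higher in PARGi that have an entry, 0 of the 4 called lower and 3 of the 19 that did not pass. Shares by call were not computed over all genes, and members called higher without an entry, such as HMOX1 and SLC7A11, were not searched. Elements outside these 300 bases were not sought either. A match describes the letters only, and whether the letters go with the calls was not tested. One stretch upstream of a start site is shown for each of the 8 members, so that those that rose can be read next to those that were not called, on the strand of the gene, 5′ to 3′, with up to 30 bases on each side and the match in capitals, on either strand.
GCLM (rose), chr1:93909431-93909494, minus strand: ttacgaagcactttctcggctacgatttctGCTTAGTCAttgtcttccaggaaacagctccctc
TXNRD1 (rose), chr12:104215650-104215718, plus strand: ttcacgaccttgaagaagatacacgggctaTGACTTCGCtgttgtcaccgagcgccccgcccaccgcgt
PGD (rose), chr1:10398833-10398901, plus strand: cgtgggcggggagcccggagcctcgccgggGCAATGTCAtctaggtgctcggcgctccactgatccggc
EPHX1 (rose), chr1:225825246-225825314, plus strand: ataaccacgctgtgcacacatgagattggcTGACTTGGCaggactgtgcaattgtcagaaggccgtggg
GSTP1 (rose), chr11:67583716-67583784, plus strand: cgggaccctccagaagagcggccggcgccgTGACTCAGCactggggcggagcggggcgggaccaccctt
KEAP1 (not called), chr19:10502787-10502855, minus strand: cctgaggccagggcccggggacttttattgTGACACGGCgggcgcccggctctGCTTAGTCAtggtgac
ME1 (not called), chr6:83431150-83431218, minus strand: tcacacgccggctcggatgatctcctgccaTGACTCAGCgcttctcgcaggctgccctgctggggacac
CBR1 (not called), chr21:36069835-36069903, plus strand: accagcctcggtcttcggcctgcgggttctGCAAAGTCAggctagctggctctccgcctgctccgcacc
The match of GCLM reads TGACTAAGC on the strand opposite to the gene and begins 34 bases upstream of the start. KEAP1 holds those same letters, also on the opposite strand and 31 bases upstream, beside another match. GSTP1 and ME1 share TGACTCAGC, 66 and 137 bases upstream, and in both the match overlaps the AP-1 letters TGACTCA, which 4.95% of all promoters in the table hold on either strand. TXNRD1 has further matches at 8 bases upstream of this start and at 102 bases upstream of a second RefSeq start. ME1 has a further match, TGACGGTGC on the opposite strand, at 12 bases downstream of its start.

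Among the 43 tested members, 16 rose and 5 fell in PARGi, and 22 did not pass the test. The 21 calls are 48.8% of the tested members, where 24.3% of all tested genes were called. In DMSO, 39 members were at 10 CPM or more, and the shares of all genes given here and below were not matched for level. Whether level accounts for the higher shares among members was not tested. The 16 rises are 37.2% of the members against 13.2% of all tested genes, and the 5 falls are 11.6% against 11%; the same shares of all genes stand behind the counts of each role. Most changes were small: of the 21 called members, 11 changed by at least 1.1-fold and 4 by at least 1.2-fold. The median absolute log2 fold change was lower over the tested members, at 0.090, than over all tested genes, at 0.109. It was also lower over the called members, at 0.141, than over all called genes, at 0.187. Neither comparison of medians was matched for level. The rises ran from 5.26% for GSTP1, a glutathione transferase, to 33.5% for GCLM, which encodes the modifier subunit of the enzyme that limits glutathione synthesis. The median log2 fold change was 0.056 over the tested members and -0.0070 over all tested genes (0.031 and -0.032 with upper-quartile scaling), with 32 members above 0 and 11 below. In 28 tested members (65.1%) the 3 libraries of a group lay wholly above or below those of the other, where 38% of all tested genes did so. Of the 28, 22 lay higher in PARGi, where 19.8% of all tested genes did, and 6 lower, where 18.2% did. All 21 called members were among them. With upper-quartile scaling 13 members rose and 6 fell, and over all genes the share of calls that were higher went from 54.5% to 40.5%.

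**Figure D1:**
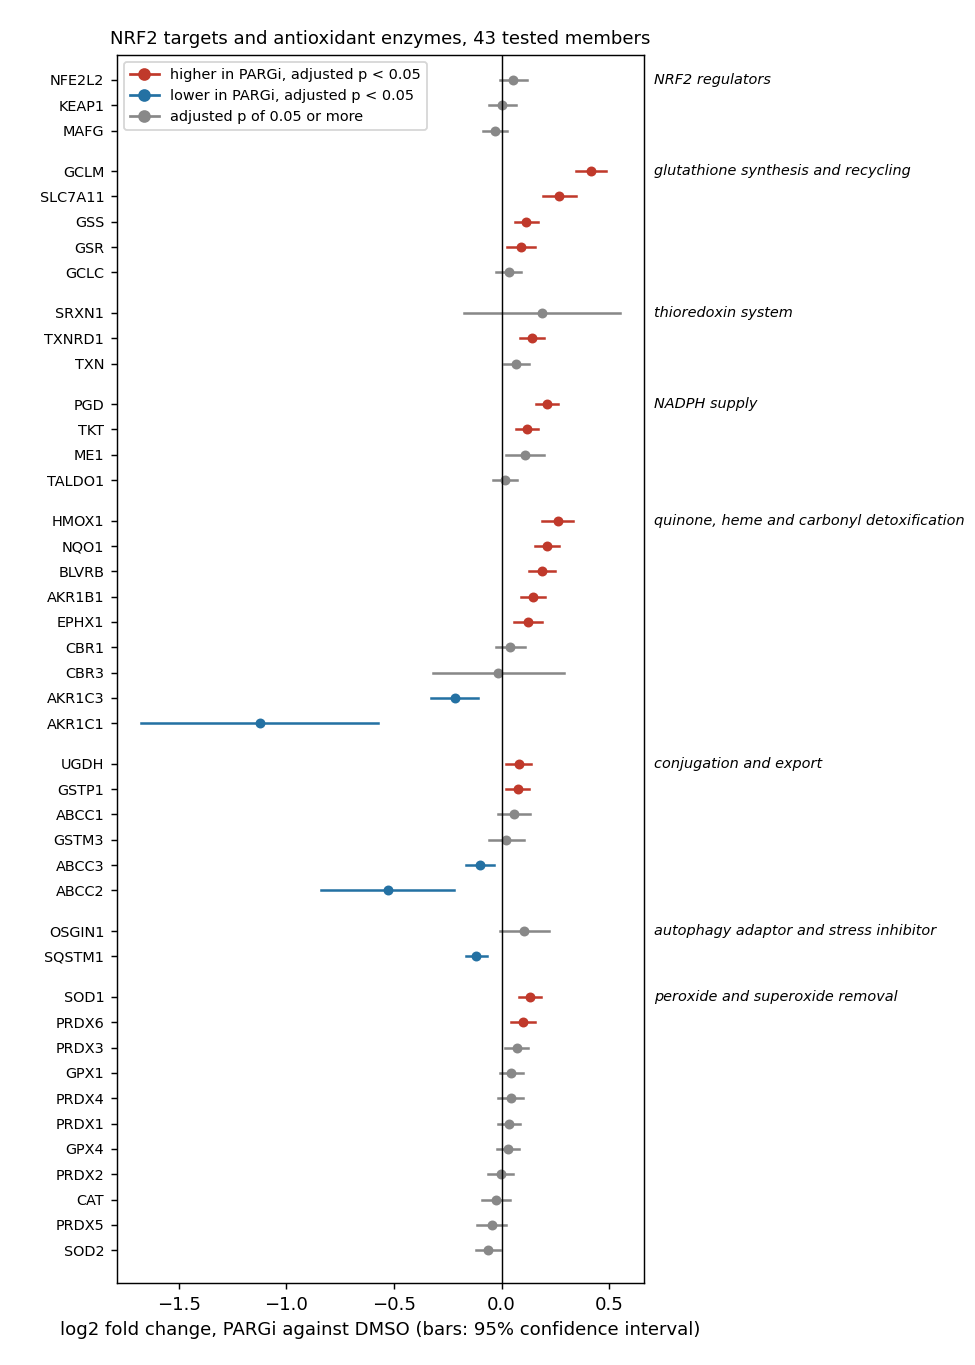
Log2 fold change of PARGi against DMSO (x axis, no change at 0) for the 43 tested members, ordered within each role; points are edgeR estimates, bars 95% confidence intervals, and colours mark the members called higher or lower at an adjusted p under 0.05. The 16 called higher lie between 0.074 and 0.42, and AKR1C1 lies furthest from 0 at -1.13.

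Transcripts of NRF2 itself, its inhibitor KEAP1 and its partner MAFG showed no detected difference. NFE2L2 was at 74.8, 80.6 and 76.5 CPM in DMSO replicates 1 to 3 and at 81.0, 81.0 and 78.9 CPM in PARGi. The groups overlapped, and the log2 fold change was 0.054 with a 95% confidence interval from -0.0076 to 0.12 (SE 0.030, edgeR adjusted p = 0.205), so at most a rise of 8.37% lies inside the interval. Without DMSO replicate 2, the highest of the control values, NFE2L2 passed the threshold at a log2 fold change of 0.085. KEAP1 was at 71.3, 74.2 and 75.5 CPM in DMSO and at 74.4, 75.6 and 71.7 CPM in PARGi. Its values were interleaved, with a log2 fold change of 0.0031 and an interval that in percent ran from -3.97% to 4.59% (edgeR adjusted p = 0.958). MAFG, a small MAF protein gene, was at 86.8 ± 1.69 CPM in DMSO against 85.1 ± 1.15 CPM with the inhibitor (SD, n = 3 each, edgeR adjusted p = 0.493). Exons of NFE2L2 and MAFG overlap other annotated genes on the same strand, over 17.6% and 2.01% of their exonic length.

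Glutathione is made from cysteine, glutamate and glycine, and 4 of the 5 members that serve its synthesis and recycling rose (80%, beside 13.2% of all tested genes) while none fell. GENCODE 29 (GRCh38) places GCLM between 93885205 and 93909456 of chromosome 1, minus strand. It was at 49.0, 50.2 and 53.1 CPM in DMSO and at 65.5, 69.5 and 68.4 CPM in PARGi, so the lowest treated library lay well above the highest control. The log2 fold change was 0.42 (SE 0.033, edgeR adjusted p = 1.51e-09), and 11.0% of all tested genes had a larger absolute change. GCLC, the catalytic subunit of the same enzyme, was at 72.6, 71.2 and 74.6 CPM in DMSO and at 74.1, 73.7 and 75.6 CPM in PARGi. The groups overlapped, and the log2 fold change was 0.033 with an interval from -0.025 to 0.090 (edgeR adjusted p = 0.448). The balance of the 2 subunit transcripts lay further toward GCLM in every treated library than in any control. The ratio of GCLM to GCLC counts, a comparison chosen after their values were seen, was 0.676, 0.706 and 0.712 in DMSO and 0.885, 0.943 and 0.905 in PARGi. The log2 difference of the ratio was 0.38 (exact two-sided permutation test, p = 0.1, the smallest that 3 against 3 libraries can give). Because the pair was chosen on these same values, this p-value adds no support to them.

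SLC7A11 encodes xCT, the light chain of the cystine importer through which cells take up the cysteine for glutathione. The gene lies on chromosome 4 (138164097 to 138242349, minus strand). It was at 44.2, 46.5 and 43.6 CPM in DMSO and at 51.7, 52.4 and 57.4 CPM in PARGi, with no overlap and the highest value in PARGi replicate 3. Its log2 fold change was 0.27 (SE 0.038, edgeR adjusted p = 9.38e-06), a rise of 20.5% with an interval from 14.1% to 27.2%. Glutathione synthetase, GSS, rose from 103 ± 1.5 to 112 ± 2.27 CPM (SD, n = 3 each, log2 fold change 0.11). Glutathione reductase, GSR, which turns oxidised glutathione back with NADPH, rose from 48.7 ± 0.882 to 51.9 ± 0.790 CPM (log2 fold change 0.090, edgeR adjusted p = 0.0328). That call was lost in 7 of 13 alternatives, DESeq2 among them.

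In the thioredoxin system, 1 of 3 members rose. TXNRD1, the cytosolic thioredoxin reductase that passes electrons from NADPH to thioredoxin, was at 219, 217 and 207 CPM in DMSO and at 236, 232 and 241 CPM in PARGi. All treated libraries lay above all controls, at a log2 fold change of 0.14 (SE 0.027, edgeR adjusted p = 0.000398). Thioredoxin, TXN, averaged 73.9 ± 1.73 CPM in DMSO against 77.5 ± 1.92 CPM with the inhibitor (SD, n = 3 each). Its groups did not overlap, but it did not pass the test (log2 fold change 0.069, edgeR adjusted p = 0.0880). SRXN1, sulfiredoxin, which repairs overoxidised peroxiredoxins, had only 54, 54 and 65 counts in DMSO and 54, 69 and 87 in PARGi. In CPM this was 0.851, 0.848 and 0.873 against 0.900, 0.933 and 1.08, and the interval of the log2 fold change ran from -0.17 to 0.55 (edgeR adjusted p = 0.492). GENCODE 29 places another gene on the same strand over 85% of the exonic length of SRXN1, and that gene had 0 counts in all 6 libraries. How reads shared by both were counted is not stated, so the level of SRXN1 is uncertain.

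Among the 4 members that supply NADPH, the pentose phosphate enzymes PGD and TKT rose. PGD, which makes NADPH from 6-phosphogluconate, was at 282, 270 and 272 CPM in DMSO and at 320, 316 and 320 CPM in PARGi. The groups were far apart relative to their spread, with a log2 fold change of 0.21 (SE 0.025, edgeR adjusted p = 6.85e-07). The transketolase TKT rose from 270 ± 2.65 to 293 ± 6.23 CPM (SD, n = 3 each, log2 fold change 0.12, edgeR adjusted p = 0.00107). TALDO1, the transaldolase of the same pathway, was at 95 ± 0.256 CPM in DMSO against 96 ± 1.94 CPM with the inhibitor (edgeR adjusted p = 0.731), with an interval from -2.68% to 4.99%. Malic enzyme, ME1, had a log2 fold change of 0.11 that did not pass the test (edgeR adjusted p = 0.0697), and its groups overlapped. It passed without DMSO replicate 2 (log2 fold change 0.13) and without PARGi replicate 1 (0.14).

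**Figure D2:**
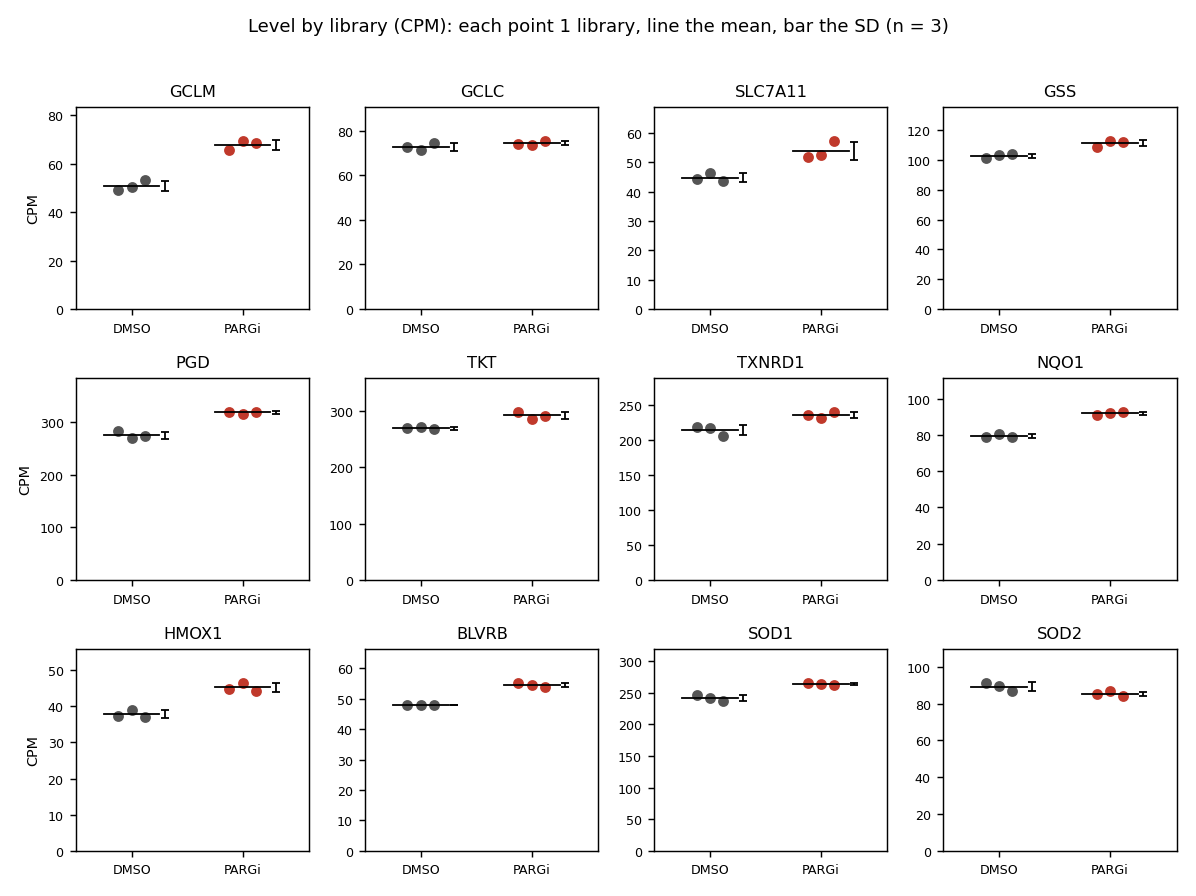
Level in CPM (y axis, from 0) of 12 members in each DMSO and PARGi library; points are single libraries, lines the mean of 3 and bars the SD. GCLM rises from 50.8 to 67.8 CPM beside a nearly level GCLC, and SOD1 rises while the SOD2 values lie slightly lower in PARGi.

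Genes that detoxify quinones, heme and carbonyls made up 10 members, of which 5 rose, 2 fell, 2 did not pass and AKR1C2 was not tested. NQO1, the quinone reductase often used as an index of NRF2 activity (chromosome 16, 69706996 to 69726951, minus strand), was at 78.8, 80.6 and 78.7 CPM in DMSO and at 91.0, 91.9 and 92.9 CPM in PARGi. It was separated by more than 10 CPM between the groups, with a log2 fold change of 0.21 (SE 0.027, edgeR adjusted p = 1.85e-06). HMOX1, the inducible heme oxygenase that opens heme to biliverdin (chromosome 22, 35380361 to 35394214, plus strand), was at 37.3, 39.1 and 36.9 CPM in DMSO and at 44.8, 46.5 and 44.3 CPM in PARGi. Every treated library was above every control, and the log2 fold change was 0.26 (SE 0.034, edgeR adjusted p = 3.87e-06). BLVRB, a biliverdin reductase, was at 47.9 CPM in each DMSO library and at 55.4, 54.4 and 53.9 CPM in PARGi. This rise of 13.8% had an interval from 9.09% to 18.8% (edgeR adjusted p = 4.46e-05).

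AKR1B1, the aldose reductase, was at 87.2, 88.8 and 87.4 CPM in DMSO and at 97.1, 94.5 and 99.7 CPM in PARGi. Its log2 fold change was 0.15 (SE 0.027, edgeR adjusted p = 0.000349), with no overlap. The epoxide hydrolase EPHX1 rose from 56.0 ± 0.820 to 61.0 ± 2.00 CPM (SD, n = 3 each, log2 fold change 0.12). The carbonyl reductases CBR1, at a log2 fold change of 0.039, and CBR3, at -0.014 and under 2 CPM, did not pass.

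The AKR1C genes, aldo-keto reductases of steroids and carbonyls, include 3 members on chromosome 10, of which AKR1C1 and AKR1C3 fell and AKR1C2 was not tested. AKR1C1 (4963253 to 4983283, plus strand) had 35, 34 and 40 counts in DMSO and 13, 21 and 19 in PARGi, or 0.551, 0.534 and 0.538 against 0.217, 0.284 and 0.236 CPM. Its log2 fold change of -1.13 had a wide interval from -1.68 to -0.57 (SE 0.27, edgeR adjusted p = 0.00296). AKR1C3 was at 11.7, 12 and 11.5 CPM in DMSO and at 10.2, 10.2 and 9.88 CPM in PARGi, all treated libraries below all controls. It fell by 0.22 on the log2 scale (SE 0.053, edgeR adjusted p = 0.00389). AKR1C2 had between 1 and 4 counts in any library. Of the 50-base windows of AKR1C1 transcripts, 28.3% also occur in AKR1C2, so reads may have been divided between these copies or dropped.

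In the conjugation and export role, 2 of 6 members rose, both of them enzymes, and 2 fell, both of them export pumps. GSTP1 (365 ± 6.39 to 385 ± 11.1 CPM) and UGDH (65.1 ± 0.771 to 68.8 ± 1.34 CPM), which makes the sugar donor for glucuronidation, rose with edgeR adjusted p-values of 0.0386 and 0.0405 (SD, n = 3 each). These were the calls nearest the threshold, and they were lost in 6 and 9 of 13 alternatives. ABCC2, an export pump for conjugates, was at 1.84, 1.49 and 1.73 CPM in DMSO and at 1.35, 1.1 and 1.09 CPM in PARGi. It fell by 0.53 on the log2 scale (SE 0.15, edgeR adjusted p = 0.0107), from 95 to 129 counts a library in DMSO to between 81 and 88 in PARGi. Its call was lost without DMSO replicate 1, without PARGi replicate 2 and without PARGi replicate 3, where the highest adjusted p was 0.0584. ABCC3, another export pump, fell from 66.9 ± 0.0705 to 62.3 ± 2.52 CPM (log2 fold change -0.10, edgeR adjusted p = 0.0190), and lost its call without PARGi replicate 1 or 2. ABCC1 (0.056) and the glutathione transferase GSTM3 (0.022) did not pass.

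SQSTM1 encodes p62, an autophagy adaptor that binds KEAP1 and is itself an NRF2 target (chromosome 5, 179806398 to 179838078, plus strand). It was at 324, 327 and 328 CPM in DMSO and at 306, 299 and 297 CPM in PARGi, with all treated libraries below all controls. It fell by 0.12 on the log2 scale (SE 0.024, edgeR adjusted p = 0.000708), a change of -7.84%. Exons of MRNIP on the opposite strand overlap 20.7% of the exonic length of SQSTM1. MRNIP was at 25.5 ± 0.842 CPM in DMSO against 26.1 ± 0.678 CPM with the inhibitor without passing the test (edgeR adjusted p = 0.590). OSGIN1, an NRF2 target known as an oxidative stress-induced growth inhibitor, was at 12.6 ± 0.0378 CPM in DMSO against 13.5 ± 1.00 CPM with the inhibitor (edgeR adjusted p = 0.183).

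**Figure D3:**
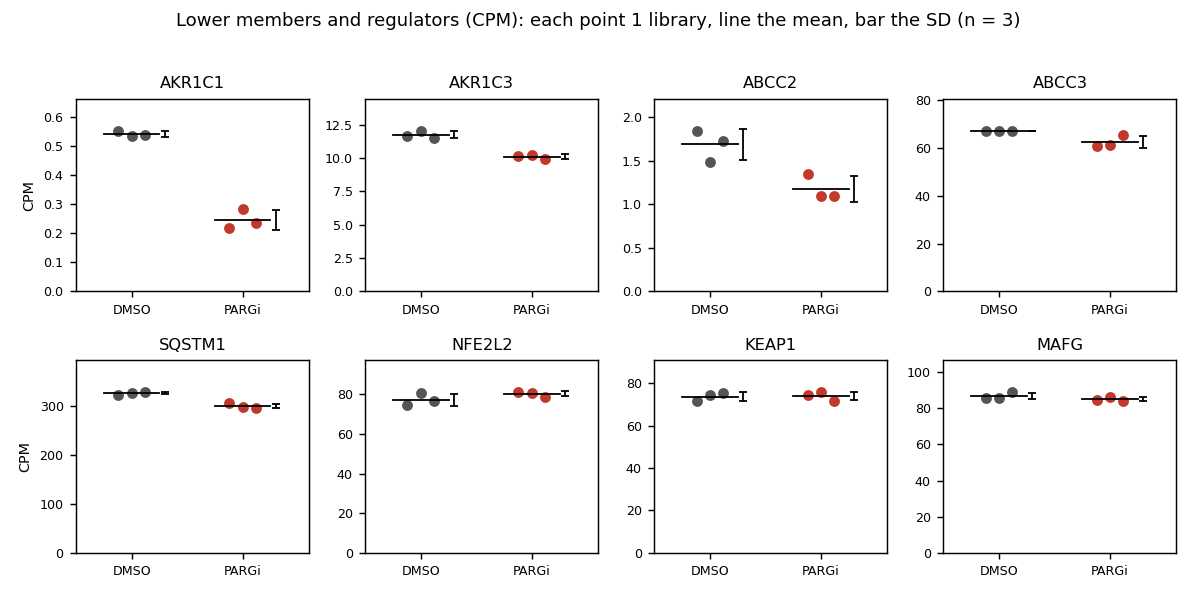
Level in CPM (y axis, from 0) in each library for the 5 members that fell and for NFE2L2, KEAP1 and MAFG; points are single libraries, lines the mean of 3 and bars the SD. AKR1C1 and ABCC2 fell from under 2 CPM, SQSTM1 from 326 to 301 CPM, and the 3 regulators overlap between groups.

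Enzymes that remove peroxide and superoxide mostly did not pass the test: 2 of 11 rose and none fell, or 18.2% called against 24.3% of all tested genes. SOD1, the copper and zinc superoxide dismutase of the cytosol, was at 247, 242 and 236 CPM in DMSO and at 266, 264 and 263 CPM in PARGi. The groups did not overlap, and the log2 fold change was 0.13 (SE 0.025, edgeR adjusted p = 0.000360). PRDX6, the peroxiredoxin that also acts on phospholipid peroxides, rose from 178 ± 4.17 to 191 ± 4.56 CPM (SD, n = 3 each, log2 fold change 0.10, edgeR adjusted p = 0.00678), and lost its call without PARGi replicate 3. SOD2, the manganese enzyme of mitochondria, was at 91.5, 89.6 and 86.8 CPM in DMSO and at 85.2, 86.7 and 84.4 CPM in PARGi. Its groups just failed to overlap, at a log2 fold change of -0.064 that did not pass (edgeR adjusted p = 0.103). It passed with upper-quartile scaling (-0.088) and without DMSO replicate 3 (-0.085). The ratio of SOD1 to SOD2 counts, chosen after the values were seen, was 2.7, 2.7 and 2.72 in DMSO and 3.12, 3.05 and 3.11 in PARGi (log2 difference 0.19, exact two-sided permutation test, p = 0.1, the smallest possible). Here too the choice of the pair on these values leaves the p-value without weight of its own.

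The other 8 enzymes of this role had log2 fold changes between -0.046 for PRDX5 and 0.069 for PRDX3, the mitochondrial peroxiredoxin with the smallest p among them (edgeR adjusted p = 0.0576). PRDX5 was low in DMSO replicate 2, at 218 CPM against 243 and 244 CPM in the other controls, and passed as lower without it (log2 fold change -0.096). Catalase, CAT, was at 59.4 ± 1.72 CPM in DMSO against 58.3 ± 1.75 CPM with the inhibitor, with an interval from -6.16% to 2.73%. GPX4, the selenoenzyme that reduces lipid peroxides, had an interval from -1.54% to 5.60%, and GPX1, its relative for soluble peroxides, one from -0.550% to 7.12%. PRDX1, the cytosolic peroxiredoxin counted among NRF2 targets, was at 555 ± 14.9 CPM in DMSO against 569 ± 9.23 CPM with the inhibitor (SD, n = 3 each, edgeR adjusted p = 0.337).

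Levels of different genes are compared as CPM per kilobase of exon, since longer transcripts collect more reads. In DMSO the highest member was PRDX1 at 365 ± 9.79, followed by PRDX5 at 263 ± 16.2, GSTP1 at 191 ± 3.34 and SOD1 at 120 ± 2.55 CPM per kilobase (SD, n = 3). PGD came next at 92.6 ± 2.23, and GPX4, PRDX6 and GPX1 followed at 82.4 ± 0.797, 75.1 ± 1.76 and 71.5 ± 0.503 CPM per kilobase. Each of these 8 differed from the next by more than the SD of either on this length. Per kilobase of the longest transcript the order changed: SOD1, at 138, lay below PGD at 146 and GPX4 at 141, and SQSTM1, at 109, lay above PRDX6 at 102. Neighbours lower in the order were often not apart, such as TXNRD1 and TALDO1, TKT and BLVRB, and the run from CBR1 through GSS, MAFG, CAT and UGDH to HMOX1. NQO1 was at 24.4 ± 0.337, HMOX1 at 15.7 ± 0.472, GCLM at 9.37 ± 0.385 and GCLC at 8.42 ± 0.196 CPM per kilobase of exon. Per kilobase of the longest transcript GCLC lay above GCLM, at 19.08 against 10.46, so the order of these subunits depends on the length used. The lowest were SRXN1, ABCC2, AKR1C1 and AKR1C2, all under 0.5. PRDX1 and PRDX5, the most abundant per length, were thus among the members that did not pass. Of the 10 highest members, 9 stayed among the 10 highest when the longest transcript was used as the length.

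**Figure D4:**
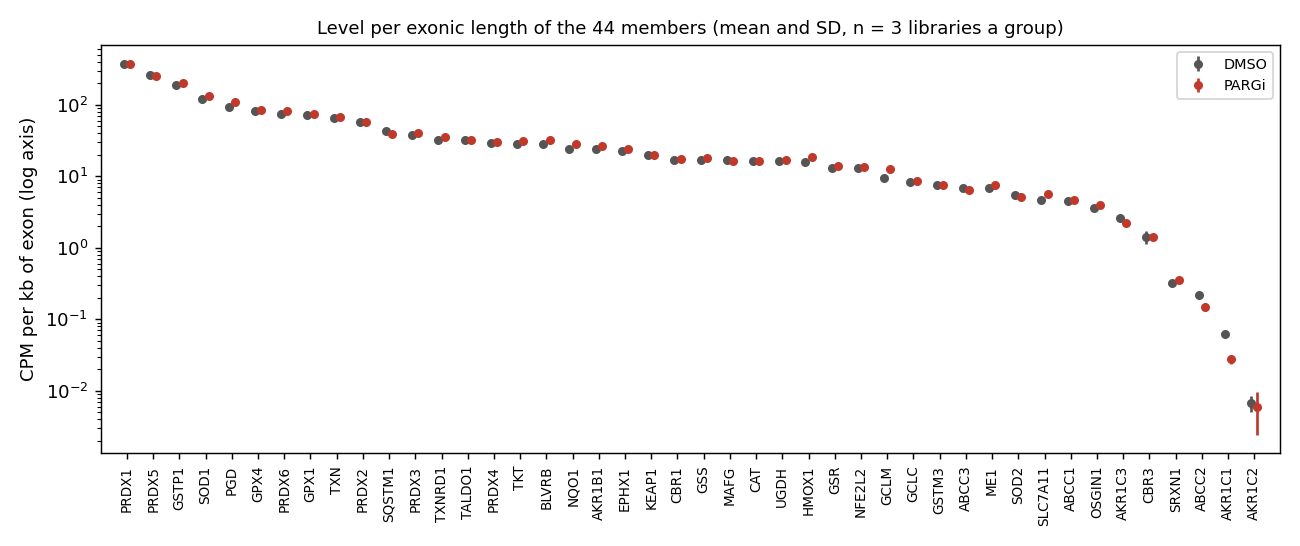
Level per exonic length (y axis, CPM per kilobase of exon, log axis) of all 44 members, ordered by their level in DMSO; points are means and bars the SD of 3 libraries, grey for DMSO and red for PARGi. Levels run from 365 for PRDX1 down to 0.00683 for AKR1C2 in DMSO, and the colours lie close together for most members.

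Further genes of the pathway were taken from 4 lists outside the members. Of 11 other regulators, 10 were tested, 3 rose and none fell. BACH1, a repressor that competes with NRF2 for its elements, rose from 94.4 ± 4.80 to 105 ± 1.83 CPM (SD, n = 3 each, log2 fold change 0.16, edgeR adjusted p = 0.000692). MAFF, a small MAF protein gene, rose from 30.1 ± 1.89 to 34.4 ± 0.272 CPM (0.19, edgeR adjusted p = 0.00110). Of 25 other genes known as NRF2 targets, 21 were tested, 7 rose and none fell, and the median was -0.0097. The fatty acid hydroxylase CYP4F11 rose from 7.91 ± 0.291 to 10.4 ± 0.521 CPM (SD, n = 3 each, log2 fold change 0.40, edgeR adjusted p = 2.61e-05).

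Of 23 other glutathione and thioredoxin genes, 22 were tested, 6 rose and 1 fell, with a median of 0.038. SLC3A2, the heavy chain that pairs with SLC7A11 in the cystine importer, rose from 258 ± 6.60 to 294 ± 7.63 CPM (SD, n = 3 each, log2 fold change 0.19, edgeR adjusted p = 1.28e-05). Glutaredoxin, GLRX, rose from 113 ± 1.93 to 129 ± 2.24 CPM (0.19), and GPX7 fell from 5.45 ± 0.177 to 4.61 ± 0.133 CPM (-0.24, edgeR adjusted p = 0.0230). Of 13 other superoxide and oxidant removal genes, 3 rose and 1 fell, with a median of 0.0015. HMOX2, the constitutive heme oxygenase, rose from 30.1 ± 0.716 to 37.6 ± 1.08 CPM (log2 fold change 0.32, edgeR adjusted p = 4.27e-07), and AIFM2, which guards membranes against lipid peroxides, from 54.4 ± 1.88 to 59.0 ± 1.09 CPM (0.12). MSRB3, a methionine sulfoxide reductase, fell from 74.7 ± 1.12 to 63.9 ± 1.00 CPM (-0.23, edgeR adjusted p = 1.47e-06). The shares called in these 4 lists lay between 30% and 33.3%, beside 24.3% of all tested genes.

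**Figure D5:**
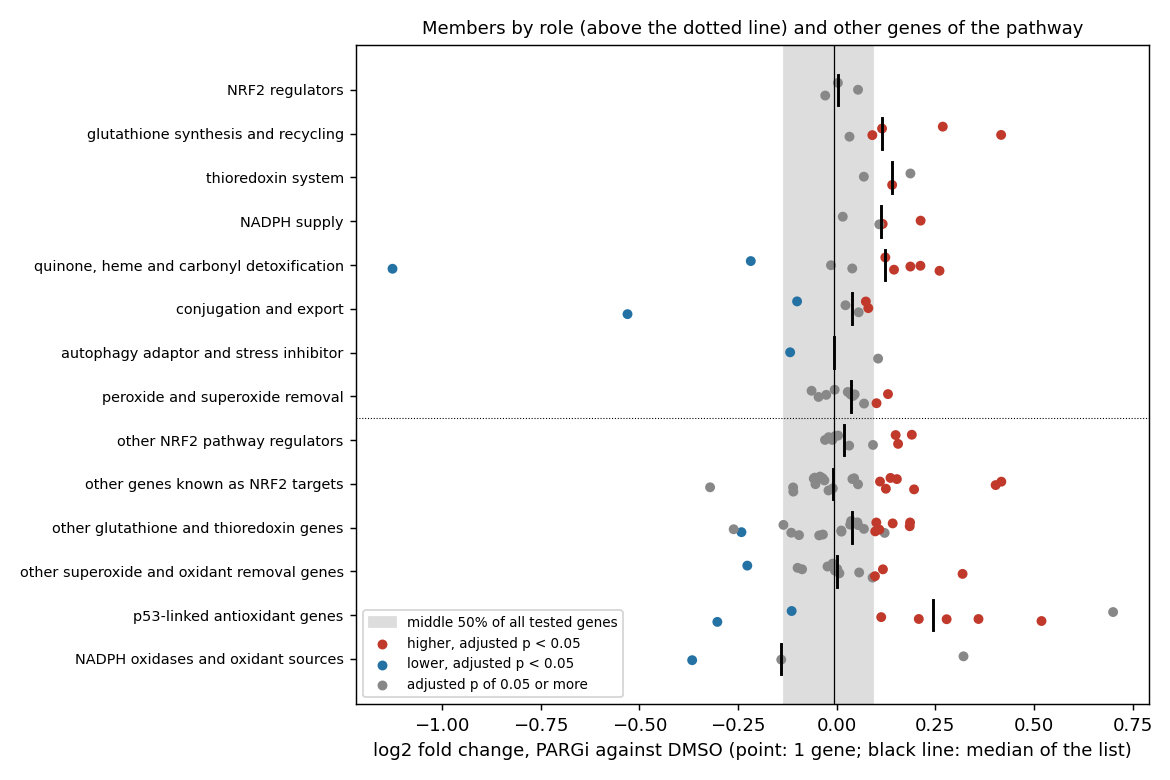
Log2 fold change of PARGi against DMSO (x axis) for each tested gene of the 8 member roles, above the dotted line, and of 6 other lists; points are genes, coloured by call, black lines list medians, and the grey band the middle 50% of all tested genes. GCLM lies furthest to the right among the members, and the list medians run from -0.14 to 0.24.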

How the data were processed

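Total RNA of 6 U2OS cultures was sequenced with a stranded kit, per the labels' protocols. The authors deposited 1 file of unnormalised counts a library, whole numbers for each Ensembl gene. Per the submitters' processing notes, cutadapt 1.18, STAR 2.7.3a, SAMtools 1.9 and hg38 were used; annotation release, strand setting and the treatment of shared reads are not given in the sources used here. Groups came from titles. Identifiers were paired with symbols by a names table, SOD2 by GENCODE 29, which also gave positions and exonic lengths.

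Genes were filtered with filterByExpr and tested with edgeR 4.0.16 (R 4.3.3; TMM scaling, glmQLFit, two-sided glmQLFTest, treatment alone, all 6 libraries). CPM values use the filtered, TMM-scaled library sizes. The SE is the absolute log2 fold change over the square root of F. The labels call the replicates biological; whether they are separate cultures or days is not stated, so p-values measure the spread between these samples. No 2 libraries were duplicates: raw counts differed within groups by a chi-square of at least 2.27 per degree of freedom. On simulated counts over 20107 genes, 57.8% of 1.2-fold, 73.4% of 1.5-fold and 81% of 2-fold changes were called. That simulation changed 200 genes drawn at random outside the lists, where 4951 genes were called in the data. Its shares need not hold for the members. Alternatives were DESeq2 1.42.0, limma-voom (limma 3.58.1), other scalings, filters and thresholds, a replicate block and each library left out. Ratios were compared with exact tests in scipy 1.17.1, and figures drawn with matplotlib 3.10.9.

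The members and lists were chosen with earlier results of these data known. Values in every library are given for 10 members set by name (NFE2L2, KEAP1, SLC7A11, GCLM, GCLC, TXNRD1, SRXN1, NQO1, HMOX1, SQSTM1), for called members with an absolute log2 fold change of at least 0.2 and for the 10 called members with the smallest p; other lists name up to 2 genes in each direction by p, of which 1 is not reported here. SOD2 and PRDX5 were chosen after their values were seen. In 14 members exons overlap a gene on the opposite strand and in 6 a gene on the same strand, so part of their reads is uncertain.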

Additional observations from a re-analysis of the deposited data

How the results depend on the processing

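All 21 called members kept their direction in each of 13 alternatives at the same threshold, and 15 of them also stayed past the threshold in every one; of the 22 that did not pass, 5 passed in at least 1. Of 559 member values recomputed, 28 lost a call, 7 gained one and 0 reversed with a call. The count of called members ran from 16 (without PARGi replicate 3) to 23 (without DMSO replicate 2), that of rises from 12 to 17 and that of falls from 3 (without PARGi replicate 2) to 6. With 1 library left out, the count over all genes ran from 3607 to 4848. The median over members was 0.031 with upper-quartile scaling, where that over all genes was -0.032, and ran from 0.048 to 0.075 with 1 library left out. An adjusted p of 0.01 called 3117 genes and 16 members, 13 higher and 3 lower. A test against a 1.2-fold change called 465 genes and 2 members, 1 higher (GCLM) and 1 lower (AKR1C1). With the replicate block, 18 members and 4553 genes were called, without GSR, GSTP1 and UGDH. No pairing by replicate number was detected, which does not exclude it. Correlations of same-numbered deviations lay between -0.042 and -0.0048, and those of differently numbered ones between -0.045 and 0.051. Counts under 150 a library limit AKR1C1, ABCC2, CBR3 and SRXN1.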

Other observations

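Antioxidant genes linked to p53, directly or through their family, form a list of 8 tested genes apart from the members. Of these, 5 rose, 2 fell and 1 did not pass. Called were 87.5% of them, beside 24.3% of all tested genes. FDXR, a mitochondrial ferredoxin reductase, rose from 54.4 ± 1.57 to 77.9 ± 0.445 CPM (SD, n = 3 each, log2 fold change 0.52, edgeR adjusted p = 4.18e-12). SESN2, a sestrin that restrains mTORC1 and takes part in the oxidant response, was at 24.1, 23.9 and 24.2 CPM in DMSO and at 30.9, 32.5 and 29.2 CPM in PARGi. Its log2 fold change was 0.36 (SE 0.041, edgeR adjusted p = 5.15e-07). SESN3, its relative and a FOXO target, was at 161, 165 and 154 CPM in DMSO and at 127, 131 and 131 CPM in PARGi. It fell by 0.30 on the log2 scale (SE 0.028, edgeR adjusted p = 1.49e-08), so the sestrin transcripts moved in different directions. TP53INP1, a p53-induced stress protein gene, fell from 39.9 ± 1.33 to 36.8 ± 0.555 CPM (log2 fold change -0.11).

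Of 8 genes for NADPH oxidases and other oxidant sources, 3 had enough counts for a test, and 1 fell (33.3% called, beside 24.3% of all tested genes). NOX4, an oxidase that releases hydrogen peroxide, was at 5.96, 5.87 and 6.49 CPM in DMSO and at 4.73, 4.88 and 4.63 CPM in PARGi. The groups did not overlap, and it fell by 0.37 on the log2 scale (SE 0.075, edgeR adjusted p = 0.000810).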
